A study of Homo sapiens with 6 samples.

Results

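10 genes of axon guidance were followed in a knockdown experiment: the ligand genes SLIT1, SLIT2, SLIT3, NTN1 and NTN4 and the receptor genes ROBO1, ROBO2, ROBO3, UNC5B and UNC5C. The 10 rows were found by gene symbol among the 60623 rows kept of the count table. They had been picked because of how they differed between the groups described here, so the differences of the 10 genes are given as a description, without a p-value. Their calls in the fit across all genes are counted below, but the choice of the genes fixed these largely in advance and nothing is read from them. The libraries are bulk RNA sequencing of cells labelled PANC-1, an established human line derived from a pancreatic ductal carcinoma. The tested condition is a short hairpin RNA against STN1 (shSTN1, 3 libraries), and the comparison condition is a control hairpin (control, 3 libraries), each labelled a biological replicate. The genotype field of 2 of the shSTN1 libraries names STN2 and STN3 knockdown, whereas their titles name shSTN1, and the titles were used. The control libraries carry the genotype WT beside their hairpin. The hairpin sequences, the number of cell clones and the time after transduction are not stated in the labels. Whether the replicates are separate cultures is not stated beyond their label, so a p-value covers the variation among these 6 libraries, part of which may be technical.

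SLIT proteins are large secreted glycoproteins that bind ROBO receptors, with heparan sulfate as a cofactor, and repel growing axons and migrating cells. Netrins are laminin-related secreted proteins that attract axons through DCC and neogenin and repel them through the UNC5 receptors. Outside the nervous system both systems act on epithelial, endothelial and tumour cells, where UNC5 receptors are known as dependence receptors, which can signal for death when no ligand is bound.

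The shSTN1 libraries held 18813591 to 23336942 counted reads and the control libraries 17357223 to 20660453. STN1 itself did not separate the labels, at 303, 306 and 275 reads in the shSTN1 libraries against 387, 346 and 278 in control (edgeR adjusted p = 0.253). CDKN2A, which PANC-1 is described as lacking, had 0 reads in each shSTN1 library and 3968, 3882 and 3903 in the control libraries. The adaptor gene IRS4 had 0, 3 and 0 reads in the shSTN1 libraries and 6578, 8457 and 5470 in control. The effect of the hairpin and a difference in the cells of the groups cannot be told apart, and all directions given here are those of the labels. Rose and fell mean only higher and lower in shSTN1 than in control. In bulk RNA, fewer cells of a type and less RNA per cell cannot be told apart either. An edgeR adjusted p below 0.05 was reached by 74.1% of 17451 genes, with 35.6% higher and 38.5% lower in shSTN1, and the libraries of the groups did not overlap for 75.6%.

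The 3 SLIT genes are paralogues that went different ways, and the start regions below show them side by side. Each is the RefSeq window (GRCh38.p14) from 250 bases before to 50 bases after the annotated start, printed 5′ to 3′ on the strand of the gene, with every CG dinucleotide in capitals. SLIT1 lies at chr10:97185910-97186209 on the minus strand, SLIT2 at chr4:20251655-20251954 on the plus strand and SLIT3 at chr5:169301090-169301389 on the minus strand. The SLIT1 and SLIT3 windows overlap the GENCODE gene used for positions here, whereas the SLIT2 window ends 1306 bases before it, so the RefSeq and GENCODE starts of SLIT2 differ.
SLIT1: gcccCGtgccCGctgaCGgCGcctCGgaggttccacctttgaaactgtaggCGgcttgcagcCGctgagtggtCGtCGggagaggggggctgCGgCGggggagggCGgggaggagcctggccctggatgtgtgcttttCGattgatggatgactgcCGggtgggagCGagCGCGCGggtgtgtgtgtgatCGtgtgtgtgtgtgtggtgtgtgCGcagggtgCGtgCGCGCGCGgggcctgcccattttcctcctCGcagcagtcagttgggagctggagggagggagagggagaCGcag
SLIT2: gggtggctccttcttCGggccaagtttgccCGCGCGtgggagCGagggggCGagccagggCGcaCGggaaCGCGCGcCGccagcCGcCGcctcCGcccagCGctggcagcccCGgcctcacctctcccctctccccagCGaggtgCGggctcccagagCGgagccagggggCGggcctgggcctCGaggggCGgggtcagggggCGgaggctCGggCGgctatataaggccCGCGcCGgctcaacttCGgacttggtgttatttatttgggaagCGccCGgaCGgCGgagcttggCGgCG
SLIT3: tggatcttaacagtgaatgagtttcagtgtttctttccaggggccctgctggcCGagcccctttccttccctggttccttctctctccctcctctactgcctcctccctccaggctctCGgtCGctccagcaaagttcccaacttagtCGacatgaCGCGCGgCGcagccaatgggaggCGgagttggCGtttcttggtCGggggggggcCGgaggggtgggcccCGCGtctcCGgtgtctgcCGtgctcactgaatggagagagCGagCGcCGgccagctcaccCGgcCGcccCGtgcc

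CG reads the same on both strands, and 96.0% of the 35116 RefSeq windows of this length hold at least 1. The SLIT1 window held 27, the SLIT2 window 36 and the SLIT3 window 22. As many or more were found in 28.2% of all windows for SLIT1, 12.7% for SLIT2 and 37.7% for SLIT3. The SLIT2 window is thus the densest of the 3, and all 3 lay above the median window, which held 14. Windows were found for 8 of the 10 genes, with NTN1 and UNC5B unmatched. Counts per gene do not show which start was in use, and the content of a window is a description only.

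In GENCODE 29 (GRCh38) the SLIT genes are SLIT1 (ENSG00000187122.17) at chr10:96998038-97185920 on the minus strand, SLIT2 (ENSG00000145147.20) at chr4:20253260-20620561 on the plus strand and SLIT3 (ENSG00000184347.14) at chr5:168661733-169301129 on the minus strand. The ROBO genes are ROBO1 (ENSG00000169855.20) at chr3:78597240-79767815 on the minus strand, ROBO2 (ENSG00000185008.17) at chr3:75906695-77649964 on the plus strand and ROBO3 (ENSG00000154134.15) at chr11:124865386-124881470 on the plus strand. The netrin genes are NTN1 (ENSG00000065320.9) at chr17:9021542-9244000 on the plus strand and NTN4 (ENSG00000074527.12) at chr12:95657807-95791152 on the minus strand, and the UNC5 genes are UNC5B (ENSG00000107731.12) at chr10:71212570-71302864 on the plus strand and UNC5C (ENSG00000182168.15) at chr4:95162504-95549206 on the minus strand. ROBO1 and ROBO2 share chromosome 3, SLIT1 and UNC5B chromosome 10, and SLIT2 and UNC5C chromosome 4.

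The secreted ligand gene SLIT2 was the member with the widest gap between the groups. No read of SLIT2 was counted in the 3 shSTN1 libraries, against 4657, 5731 and 3907 reads in the control libraries, which corresponds to 224, 256 and 212 CPM (counts scaled to library size, with TMM factors). With a floor of 3 reads over the 3 shSTN1 libraries, SLIT2 was at least 4637-fold lower in shSTN1. This bound covers counting error only, and it was 3042-fold, 2936-fold and 3257-fold without shSTN1 replicates 1, 2 and 3 in turn, since fewer reads then stand behind the floor. The groups were far apart, with a control level of 230.7 ± 23.1 CPM (SD, n = 3).

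SLIT3, its paralogue, lay on the other side. SLIT3 was at 15.0, 18.1 and 18.7 CPM in shSTN1 and at 7.07, 8.28 and 6.61 CPM in control. Every shSTN1 library was above every control library, with a ratio of the means of 2.36 and a difference in log2 CPM of 1.23 (SE 0.14, prior count 2). SLIT1 was low throughout, with 13, 31 and 28 reads in shSTN1 and 113, 115 and 149 in control. Its groups did not overlap either, at 1.21 ± 0.509 against 6.22 ± 1.61 CPM, a difference of -2.33 (SE 0.43).

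SLIT2 and SLIT3 both carry a gene for miR-218 in an intron, and the mature strand hsa-miR-218-5p has the same sequence from either host. It is shown because the hosts went apart while the product they share is the same, with the seed (bases 2 to 8) in capitals (RefSeq, GRCh38.p14, chr4:20528299-20528319 on the plus strand in SLIT2 and chr5:168768211-168768231 on the minus strand in SLIT3).
hsa-miR-218-5p: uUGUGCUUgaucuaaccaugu

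The hairpin rows hardly took reads. MIR218-1 in SLIT2 had 0 reads in shSTN1 and 2 in control, and MIR218-2 in SLIT3 had 0 in both groups. These rows count the precursor genes and do not measure the mature strand.

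**Figure D1:**
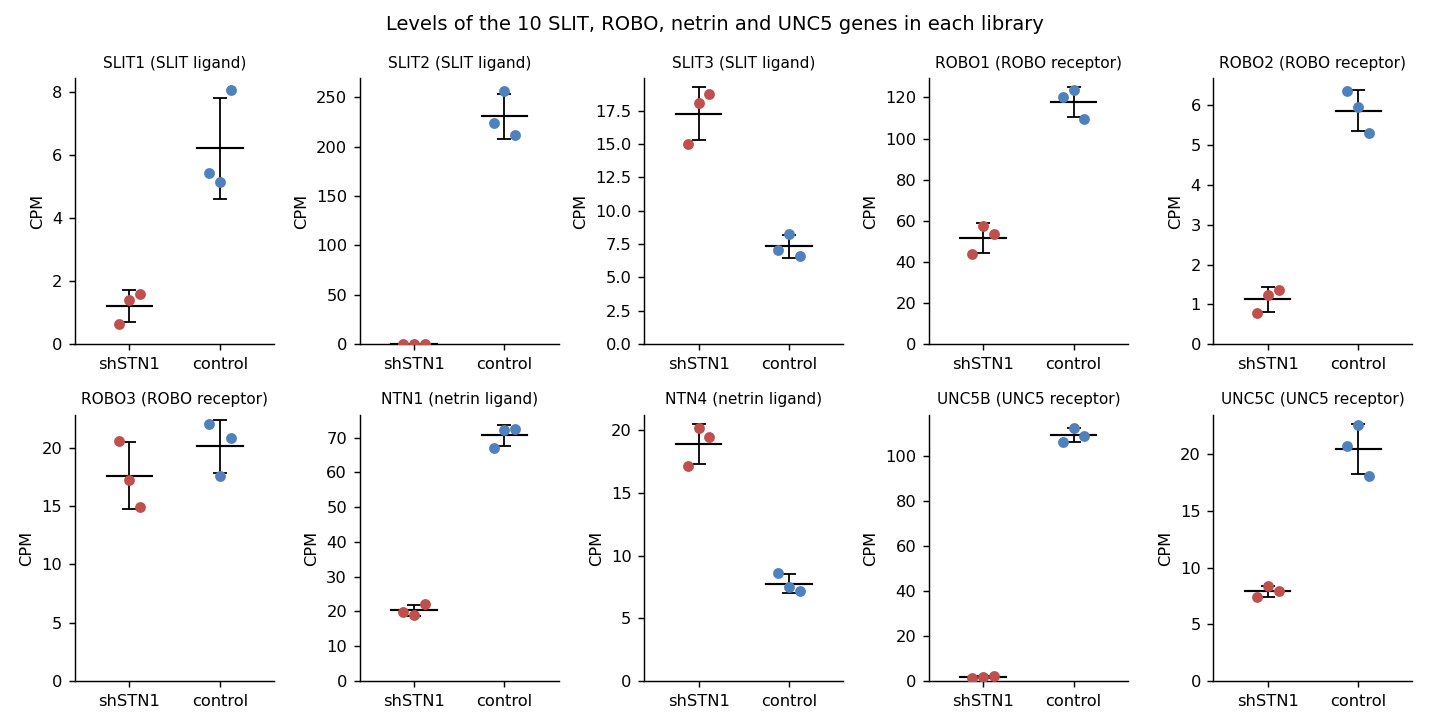
CPM of each of the 10 genes (vertical axes, linear, each with its own range) in the 3 shSTN1 and 3 control libraries. Points are libraries, the horizontal line is the mean and the bar is the SD. SLIT2 is at 0 in all 3 shSTN1 libraries and at 212 to 256 CPM in control, SLIT3 and NTN4 are the genes with higher shSTN1 points, and ROBO3 is the gene whose groups overlap.

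The receptor genes of the SLIT ligands were lower in shSTN1 for ROBO1 and ROBO2. ROBO1, the most abundant ROBO transcript per length in either group, was at 43.8, 57.7 and 53.6 CPM in shSTN1 and at 120.4, 123.5 and 109.6 CPM in control. The lowest control library was above the highest shSTN1 library, and the mean in shSTN1 was 43.9% of control, a difference in log2 CPM of -1.20 (SE 0.13). ROBO2, which acts with ROBO1 in commissural axons, had 16, 27 and 24 reads in shSTN1 and 132, 133 and 98 in control. Its level was 1.13 ± 0.306 against 5.87 ± 0.526 CPM, a difference of -2.31 (SE 0.24), without overlap. ROBO3, a divergent receptor that in mammals binds NELL2 and has little affinity for SLIT, had 422, 377 and 263 reads in shSTN1 and 457, 393 and 384 in control. Its levels overlapped, at 17.6 ± 2.86 against 20.1 ± 2.28 CPM, with a difference of -0.20 (SE 0.17).

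Among the netrins, NTN1 and NTN4 differed in opposite directions. NTN1, the classical chemoattractant of commissural axons, was at 19.9, 19.1 and 22.02 CPM in shSTN1 and at 67.04, 72.3 and 72.5 CPM in control. The groups lay well apart, with a mean in shSTN1 at 28.8% of control and a difference in log2 CPM of -1.79 (SE 0.07). NTN4, a basement membrane netrin that binds laminin gamma chains, was at 17.1, 20.2 and 19.5 CPM in shSTN1 and at 8.61, 7.52 and 7.15 CPM in control. Each shSTN1 library was above all control libraries, with a ratio of the means of 2.44 and a difference of 1.28 (SE 0.11).

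The UNC5 receptor genes were both lower. UNC5B, a netrin receptor with a cytoplasmic death domain that also guides endothelial tip cells, had 25, 39 and 36 reads in shSTN1 and 2206, 2513 and 2003 in control. Its level was 1.68 ± 0.421 against 109 ± 3.17 CPM, or 64.8-fold lower by the ratio of the means, with a difference in log2 CPM of -5.97 (SE 0.21). UNC5C, the relative that mediates repulsion from netrin in the hindbrain and spinal cord, was at 7.42, 8.34 and 7.94 CPM in shSTN1 and at 20.7, 22.5 and 18.1 CPM in control. Neither receptor had overlapping groups, and the UNC5C mean in shSTN1 was 38.6% of control (difference -1.36, SE 0.10).

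All 10 genes passed the filter on low counts. By the threshold named above 2 of them were higher, 7 lower and 1 not past, where 35.6% of all genes were called higher and 38.5% lower. At least 2-fold differences of the means were found for 2 higher and 7 lower, where 15.8% and 19.1% of all genes reached that size. SLIT2 and UNC5B were the 2 members at least 8-fold lower, a size reached by 6.69% of all genes. Groups did not overlap for 9 of the 10, where 75.6% of all genes did not. The median difference in log2 CPM was -1.57 for the 10 members, unaltered with SLIT2 at its bound, and -0.03 for all genes tested. The 5 ligand genes had a median of -1.79 and the 5 receptor genes one of -1.36. Since the members were chosen on this contrast, nothing is read from these counts.

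Levels between genes were compared per kilobase of exon. In shSTN1 ROBO1 (4.75 ± 0.658 CPM per kilobase) and NTN4 (4.55 ± 0.383) were at the top and did not differ beyond their spread. They were followed by NTN1 (3.19), ROBO3 (2.51), SLIT3 (1.21), UNC5C (0.740) and UNC5B (0.246), each separated from the next by all 3 libraries. SLIT1 (0.133) and ROBO2 (0.0676) overlapped near the bottom, and SLIT2 was at 0. In control SLIT2 led with 23.8 ± 2.38 CPM per kilobase, ahead of UNC5B (15.9 ± 0.463). NTN1 (11.1 ± 0.487) and ROBO1 (10.8 ± 0.671) did not differ beyond their spread there, and neither did UNC5C (1.91 ± 0.209) and NTN4 (1.86 ± 0.183), nor SLIT1 (0.683 ± 0.177) and SLIT3 (0.513 ± 0.0603). ROBO3 stood at 2.86 and ROBO2 was lowest at 0.352.

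The make-up of each family followed from these levels. SLIT3 held 90.4% ± 2.98 of the summed SLIT level per kilobase in shSTN1, and 2.05% ± 0.0522 in control, where SLIT2 held 95.2% ± 0.881 (SD, n = 3). NTN4 held 58.8% ± 2.73 of the netrin level in shSTN1 and 14.4% ± 1.77 in control. UNC5C held 75.3% ± 4.12 of the UNC5 level in shSTN1 and 10.7% ± 0.930 in control. The ROBO family kept its order, with ROBO1 at 64.7% ± 6.35 in shSTN1 and 77.1% ± 2.44 in control, followed by ROBO3. So the leading member differed between the groups for SLIT ligands, netrins and UNC5 receptors, and was ROBO1 in both for the ROBO receptors.

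**Figure D2:**
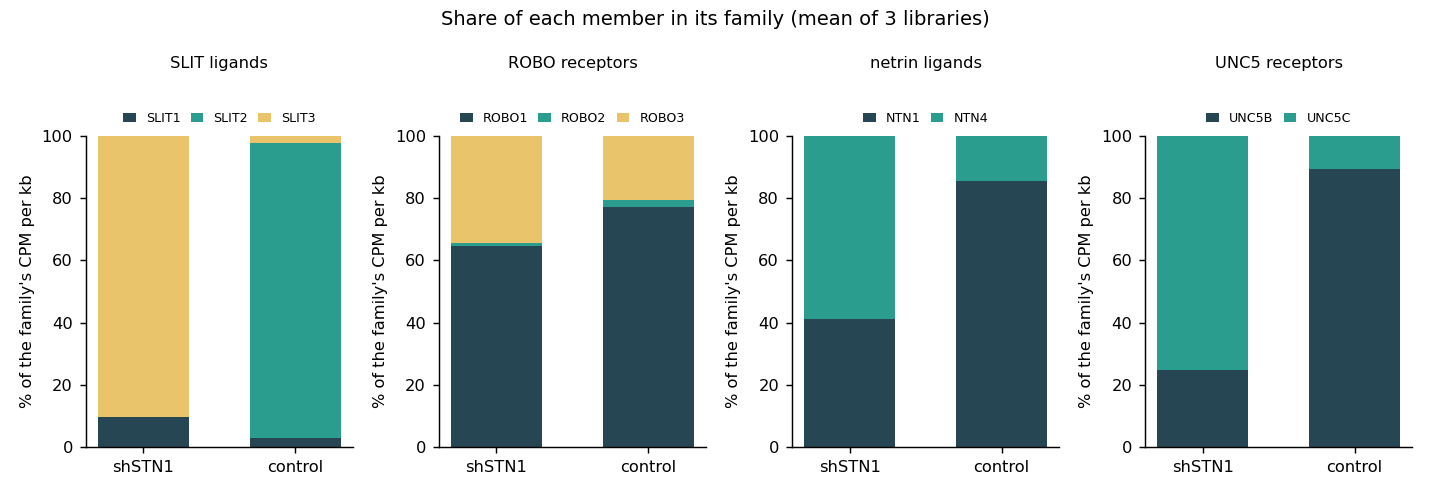
Share of each gene in the summed CPM per kilobase of its family (vertical axis, %), as the mean of 3 libraries, shSTN1 left and control right in each panel. SLIT2 fills 95.2% of the control SLIT bar and is missing from the shSTN1 bar, where SLIT3 holds 90.4%.

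Set against their receptors, the ligands of the 2 families went in opposite directions. The summed SLIT level was 1.12, 1.42 and 1.49 CPM per kilobase in shSTN1 and 24.2, 27.5 and 23.1 in control, while the summed ROBO level was 7.004, 7.84 and 7.14 in shSTN1 and 14.6, 14.2 and 13.4 in control. SLIT over ROBO was thus 0.160, 0.182 and 0.208 in shSTN1 and 1.66, 1.94 and 1.73 in control, a difference of -3.28 on the log2 scale (SE 0.13). SLIT transcripts outnumbered ROBO transcripts per length in every control library and in no shSTN1 library. The ROBO sum includes ROBO3, which has little affinity for SLIT and held 34.3% of that sum in shSTN1 and 20.4% in control. The direction of SLIT over ROBO rests on SLIT2: SLIT1 and SLIT3 alone over ROBO gave 0.183 ± 0.0242 in shSTN1 and 0.0856 ± 0.0137 in control, a difference of 1.10 (SE 0.17) in the other direction.

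The netrin level was 7.24, 7.84 and 8.12 CPM per kilobase in shSTN1 and 12.6, 13.1 and 13.1 in control, and the UNC5 level was 0.873, 1.04 and 1.04 in shSTN1 and 17.5, 18.5 and 17.6 in control. Netrin over UNC5 was 8.29, 7.52 and 7.79 in shSTN1 and 0.720, 0.708 and 0.745 in control, a difference of 3.44 on the log2 scale (SE 0.05). Netrin transcripts outnumbered those of UNC5B and UNC5C per length in every shSTN1 library and in no control library. The UNC5 sum was lower by more than the netrin sum was. With NTN4 as the only netrin the difference was 5.47 (SE 0.10). NTN4, the basement membrane netrin, held 58.8% of the netrin sum in shSTN1 and 14.4% in control. NTN1 alone was at 3.19 CPM per kilobase in shSTN1 and 11.1 in control, beside mean UNC5 sums of 0.986 and 17.9. NTN1 alone thus exceeded the UNC5 sum in every shSTN1 library and in no control library. Its difference was not computed, but it is smaller than 3.44, as NTN4 weighs more in the shSTN1 sum.

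**Figure D3:**
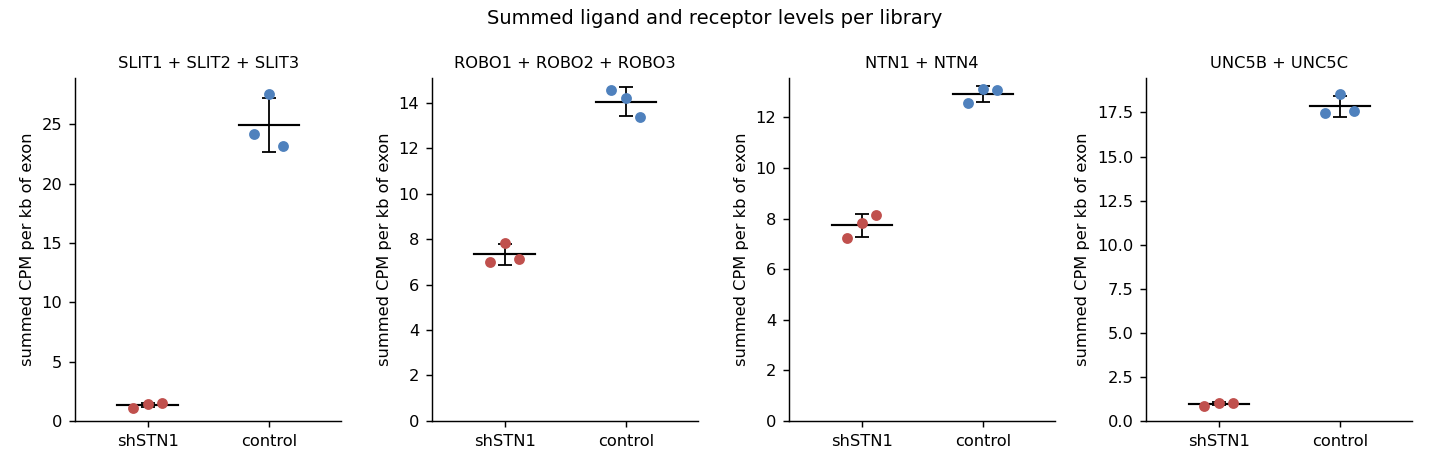
Summed CPM per kilobase of exon (vertical axes, linear) of the SLIT ligands, the ROBO receptors, the netrins and the UNC5 receptors in each library, with mean and SD. All 4 sums are lower in shSTN1, the SLIT sum at 1.12 to 1.49 against 23.1 to 27.5 and the UNC5 sum at 0.873 to 1.04 against 17.5 to 18.5.

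The spread between replicates of the members was set beside that of tested genes within 0.5 log2 CPM of the same level. ROBO1 varied more in shSTN1, with an SD of 0.21 log2 CPM where genes of that level had a median of 0.07, and did not in control (0.09 against a median of 0.09). SLIT1 had an SD of 0.65 in shSTN1 (median 0.33) and 0.35 in control (median 0.17). ROBO3 had 0.23 in shSTN1 (median 0.11) and 0.17 in control (median 0.12). UNC5B had 0.36 in shSTN1 (median 0.29) and 0.04 in control (median 0.09). SLIT2 had 0.14 in control (median 0.08). UNC5C had 0.08 in shSTN1 (median 0.14) and 0.16 in control (median 0.12). SLIT3 had 0.17 in shSTN1 (median 0.11) and 0.16 in control (median 0.15). ROBO2 had 0.39 in shSTN1 (median 0.33) and 0.13 in control (median 0.17). NTN1 had 0.11 in shSTN1 (median 0.10) and 0.06 in control (median 0.09). NTN4 had 0.12 in shSTN1 (median 0.10) and 0.14 in control (median 0.15). These differences in spread were not tested.

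Genes with the most similar level in all 6 libraries were looked up among 17405 protein-coding genes with reads by Euclidean distance of log2 CPM, which the group difference dominates. The nearest to SLIT2 were CDKN2A (distance 0.61) and IRS4 (1.54), and the nearest to UNC5B were the glypican gene GPC3 (0.51) and DPYSL5 (1.05). SLIT1 had ROBO2 (0.77) and VAX2 (0.89), and ROBO2 had SEMA3D (0.53) and TMEM229B (0.54). For SLIT3 they were ZNF605 and B3GNT9, for ROBO1 IREB2 and PHF6, for ROBO3 ENKD1 and NINJ1, for NTN1 TUB and RABEP1, for NTN4 ZNF185 and DDX58, and for UNC5C DMD and GCH1, at distances of 0.18 to 0.36.

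Beyond the 10 genes, the rest of the pathway was taken from 5 lists of 80 genes, of which 72 were tested. In these lists 26 genes rose and 34 fell in shSTN1 and 12 did not pass the edgeR threshold, so 83.3% passed where 74.1% of all genes did. The lists were drawn up with earlier results of these data known. The shares past the threshold, here and for each list below, are therefore a description only. The median difference in log2 CPM was -0.17, against -0.03 for all genes tested.

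Of the 10 other family members, 5 were tested, 1 rose and 3 fell, or 80% past the threshold where 74.1% of all genes were. The netrin-binding receptor gene NEO1 (neogenin) fell to 49.96 ± 1.59 CPM in shSTN1, against 89.6 ± 9.98 CPM in control (difference -0.84, SE 0.10, edgeR adjusted p = 4.52e-11). UNC5A, a further UNC5 receptor, had 28 reads in shSTN1 and 127 in control (edgeR adjusted p = 8.71e-06), and the UNC5-related gene UNC5CL had 52 and 172 (edgeR adjusted p = 4.43e-06). Both fell, as both UNC5 members of the 10 were lower. NTNG2, a membrane-anchored netrin-G, rose to 12.5 ± 0.750 CPM, against 6.30 ± 0.539 CPM in control (0.97, edgeR adjusted p = 1.38e-07). NTN3 did not pass, at 1.32 ± 0.0905 against 1.57 ± 0.180 CPM (edgeR adjusted p = 0.46). DCC, the main attractive netrin receptor, had 0 reads in shSTN1 and 5 in control. NTN5 had 11 and 27 reads, NTNG1 12 and 27, ROBO4 1 and 3, and UNC5D 0 and 1, all too few to be tested.

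Other ligands and co-receptors had 13 tested members, of which 3 rose and 9 fell (92.3% against 74.1% of all genes), with a median of -1.34. NELL2, a ligand of ROBO3, fell to 0.153 ± 0.0928 CPM in shSTN1, against 30.6 ± 1.06 CPM in control (edgeR adjusted p = 2.29e-24). RGMA, a ligand of neogenin, fell to 0.698 ± 0.0791 CPM, against 42.2 ± 2.64 CPM in control (edgeR adjusted p = 2.28e-25). The latrophilin gene ADGRL1, whose family binds FLRT proteins together with UNC5, fell by 1.34 on the log2 scale (edgeR adjusted p = 1.19e-18). PLXNA1, a semaphorin receptor that also binds the C-terminal fragment of SLIT, rose to 465 ± 10.4 CPM, against 205 ± 15.0 CPM in control (1.19, edgeR adjusted p = 2.96e-17). NELL1 had 0 reads in shSTN1 and 95 in control, at least 30.8-fold lower (named after its values were seen), and the list median was the same with NELL1 at that bound.

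Heparan sulfate carriers and their enzymes, the cofactors of SLIT binding, were listed together with DAG1, a gene of SLIT-binding matrix. Of the 16 genes on this list 7 rose and 7 fell (87.5% past the threshold against 74.1% of all genes, median -0.09). DAG1 was among those that rose, at 331 CPM in shSTN1 against 211 CPM in control. Glypican and syndecan genes fell for GPC3 (1.56 ± 0.208 CPM in shSTN1 against 128 ± 2.98 CPM in control, edgeR adjusted p = 5.76e-30), GPC4 (-2.02), GPC6 (-1.86), GPC2 (-0.39) and SDC2 (-2.46), and rose for GPC1 (1.05), SDC1 (1.34) and SDC4 (1.13). SDC3 did not pass, at 121.6 CPM in shSTN1 and 125.6 CPM in control. The heparan sulfate 6-O-sulfotransferase gene HS6ST2 fell to 4.17 ± 0.679 CPM, against 48.3 ± 3.70 CPM in control (edgeR adjusted p = 1.64e-22). Its relative HS6ST1 did not pass, at 60.8 CPM in shSTN1 and 66.9 CPM in control. Of the other enzyme genes on the list, EXT1 fell (-1.06), and EXT2 (0.21), NDST1 (0.42) and HS2ST1 (0.44) rose. DAG1, GPC1, GPC2, GPC6, SDC1, SDC3, SDC4, HS6ST1, EXT1, EXT2, NDST1 and HS2ST1 were named after their values were seen.

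Cytoplasmic partners of ROBO receptors had 9 of 21 members that rose and 7 that fell (median 0.11), or 76.2% past the threshold, close to the 74.1% of all genes. The actin regulator gene ENAH fell to 123 ± 6.97 CPM in shSTN1, against 286 ± 24.2 CPM in control, whereas its relative VASP rose to 174 ± 13.4 CPM, against 81.2 ± 4.86 CPM. SRGAP3, of the srGAP family that binds ROBO, fell by 3.12 on the log2 scale, and the adaptor gene NCK2 rose by 1.06. The edgeR adjusted p of these 4 genes lay between 8.27e-17 for ENAH and 2.43e-14 for NCK2. Partners of DCC and UNC5 receptors had 6 of 17 tested members that rose and 8 that fell (82.4% against 74.1% of all genes, median -0.11). DAPK1, the death-associated kinase that works downstream of UNC5B, fell to 1.27 ± 0.317 CPM, against 40.6 ± 3.56 CPM in control (edgeR adjusted p = 7.01e-24). The kinase gene FYN fell by 3.95 on the log2 scale, the DCC-binding ubiquitin ligase gene TRIM9 fell by 3.08, and the exchange factor gene TRIO rose by 1.47 (edgeR adjusted p = 2.27e-19).

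**Figure D4:**
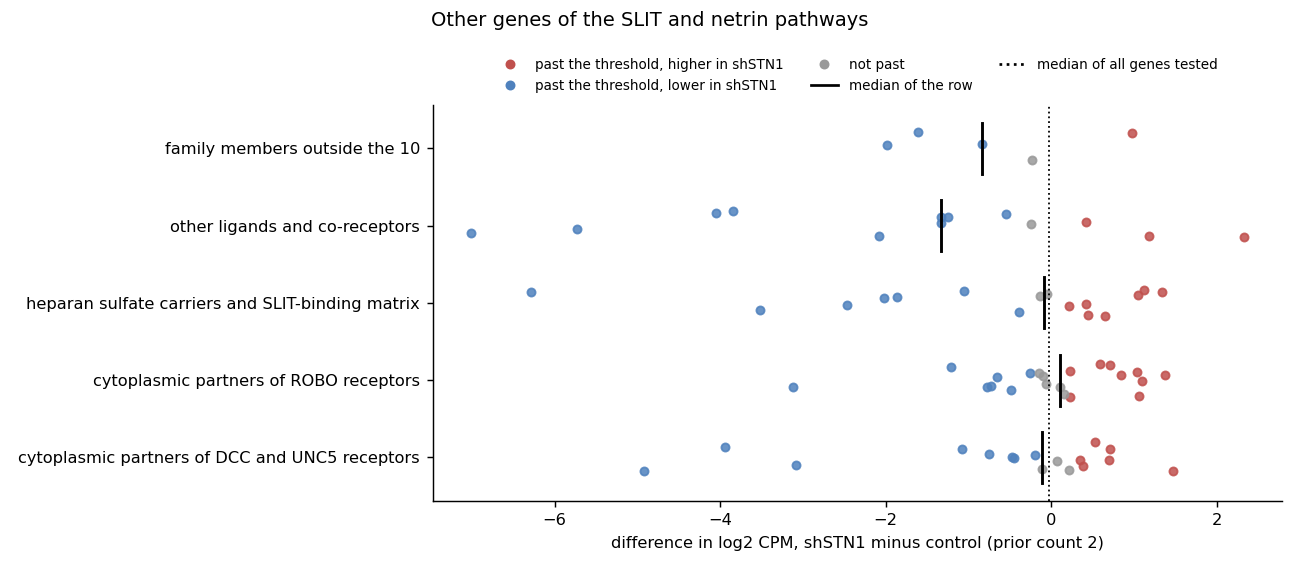
Difference in log2 CPM, shSTN1 minus control (horizontal axis), of the tested genes in each of the 5 pathway lists, with the median of each list (bar) and of all genes tested (dotted line). The list of other ligands and co-receptors has its median at -1.34, the cytoplasmic lists sit around the median of all genes, and the place of NELL1, without reads in shSTN1, depends on the prior count.

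The chromosome surroundings of the members were compared by the same fit. Among 101 tested genes that overlap a member or start within 1 Mb of one, 37 rose and 43 fell, or 79.2% with a median of -0.01, where 74.1% of all genes passed with a median of -0.03. The neighbours named next were chosen after their values were seen. SLIT2 had 1 such neighbour, PACRGL, at 75721 bases, which fell to 8.54 CPM in shSTN1, against 13.4 CPM in control (-0.63). Around UNC5B 8 of 16 neighbours rose and 4 fell (median 0.32), and the closest, SLC29A3, had a difference of -1.18. Of 5 neighbours of SLIT3, 1 rose and 4 fell (median -0.43), while SLIT3 itself was higher. The 3 neighbours of UNC5C all fell, by 0.42 to 0.74. Some neighbours differed by more than the member beside them: near NTN1, GAS7 had 0 reads in shSTN1 and 271 in control (at least 87.9-fold lower) and PIK3R5 had 6 and 154, near ROBO3, PKNOX2 had 1 and 1162, near NTN4, USP44 had 0 and 244 (at least 79.1-fold lower), near SLIT1, PIK3AP1 had 59 and 394, and near SLIT3, FBLL1 had 304 and 106.

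The library kit named in the labels does not mark strand. Where exons of a member overlap those of a gene on the opposite strand, their reads cannot be told apart. Reads from exons shared with a gene on the same strand, as with the readthrough gene ARHGAP19-SLIT1, cannot be told apart either. How many reads of SLIT1 this touched is not known. Of 23 overlapping genes, 6 had at least 10 reads over all libraries. AC106881.1, on the opposite strand of UNC5C, had 14 reads in shSTN1 and 62 in control and fell (edgeR adjusted p = 4.16e-04). SLIT2-IT1, within an intron of SLIT2, had 0 reads in shSTN1 and 11 in control. The other 4 were the readthrough gene ARHGAP19-SLIT1 with 10 and 13 reads, RN7SL751P in ROBO1 with 8 and 3, AC005695.1 in NTN1 with 10 and 3, and PGAM1P5 in NTN4 with 7 and 6. All are few beside the reads of the members, except beside SLIT1, which had 72 reads over the shSTN1 libraries.

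**Figure D5:**
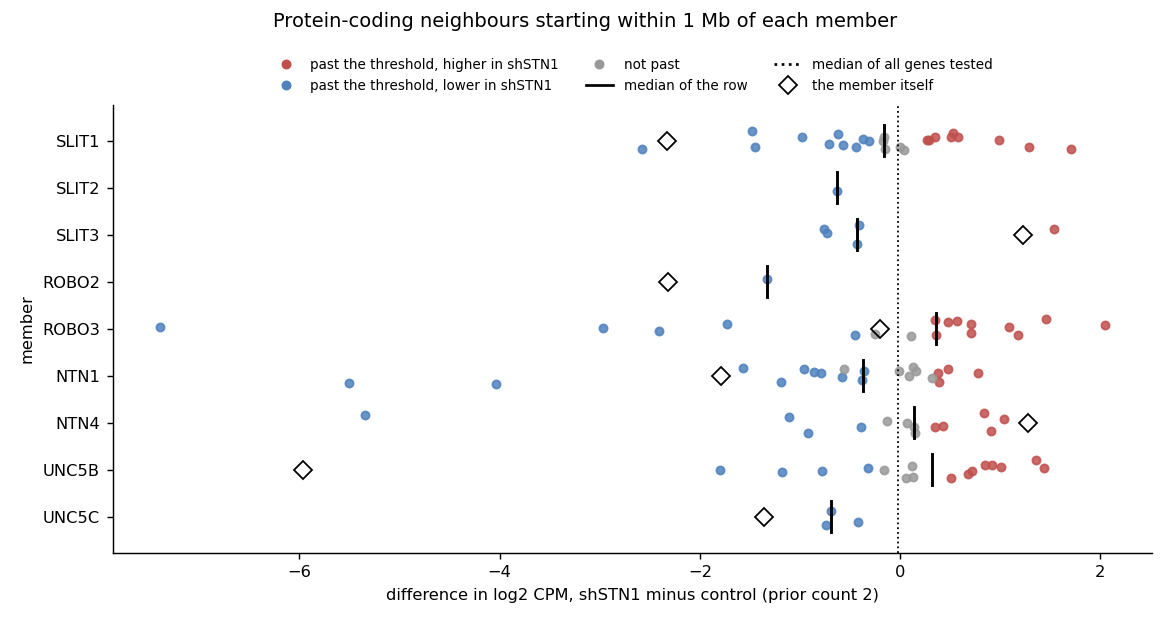
Difference in log2 CPM, shSTN1 minus control (horizontal axis), of protein-coding genes that start within 1 Mb of a member (rows; ROBO1 had none tested), with the row median (bar), the median of all genes tested (dotted line) and the member itself (diamond; none for SLIT2, which had no reads in shSTN1). UNC5B at -5.97 lies left of all 16 of its neighbours, and the place of neighbours without reads in shSTN1 depends on the prior count.

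Cell type markers moved between the same libraries as the members. Of 12 markers of pancreatic carcinoma epithelium, 10 reached 1 CPM in shSTN1 and 7 in control, with a sum of 5861 to 6019 CPM in shSTN1 and 982 to 1052 CPM in control. The keratin genes KRT8, KRT18 and KRT19 made up most of either sum, at 3606, 965 and 982 CPM in shSTN1 and 606, 153 and 175 CPM in control. On that list 10 genes rose and 0 fell. CEACAM6, with 12 reads in shSTN1 and 13 in control, and S100P, with 17 and 6, were not tested. Of 10 markers drawn up for embryonic kidney cells, 5 reached 1 CPM in shSTN1 and 9 in control (86.1 to 87.7 against 555 to 639 CPM), with HMX1 and SALL1 at 0 reads in shSTN1 and at 2578 and 2372 in control. On the embryonic kidney list 2 genes rose and 7 fell: PAX2 (62.4 CPM in shSTN1 against 24.2 CPM in control) and OSR1 (3.40 against 0.443 CPM) rose, and WT1 did not pass. IRS4 made up most of the control sum, and without it the sums were 85.9 to 87.7 CPM in shSTN1 and 258.9 to 261.8 CPM in control. Neuron markers reached 1 CPM for 4 of 10 in shSTN1 and 5 of 10 in control (65.8 to 70.6 against 192 to 203 CPM), and ELAVL4 and DCX were at 0 reads in shSTN1 and at 1 and 3 in control. That gap was NEFM, with 4 reads in shSTN1 and 8407 in control: without it the sums were 65.8 to 70.5 CPM in shSTN1 and 59.8 to 62.2 CPM in control, and MAP2, TUBB3 and SNAP25 rose while RBFOX3 and SYP fell. Endothelial markers reached 1 CPM for 2 of 10 and 3 of 10 (6.87 to 8.74 against 17.9 to 21.8 CPM), with PECAM1 and EMCN at 0 in both groups. The gap was FLT1, with 7 reads in shSTN1 and 947 in control. Without FLT1 the sums were 6.78 to 8.57 CPM in shSTN1 and 4.48 to 5.19 CPM in control. Of the remaining markers ESAM rose, while CLDN5 fell, with 5 reads in shSTN1 and 56 in control. Fibroblast markers reached 1 CPM for 5 of 10 and 4 of 10 (171 to 185 against 75.8 to 91.5 CPM). Of the tested markers 3 rose (COL1A1, COL3A1 and THY1) and 0 fell. LUM, with 2 reads in shSTN1 and 30 in control, and PDGFRA, with 13 and 27, were lower without overlap. Both had too few reads to be tested. COL1A1 made up most of either sum, at 123.7 CPM in shSTN1 and 46.7 CPM in control. DCN had 0 reads in shSTN1 and 6 in control, all 6 in control replicate 3. The markers named here, and those left out of a sum, were chosen after their values were seen. The part of these marker lists in the differences of the SLIT, ROBO, netrin and UNC5 genes was not tested.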

How the data were processed

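The authors deposited raw read counts per gene for 6 libraries. The submitters' processing notes name STAR 2.7.2b, featureCounts 2.0.1, cutadapt and FastQC, and build GRCh38. They give no annotation release or strand setting. Of 60668 rows, 45 second pseudoautosomal copies were left out. Positions and exon lengths came from GENCODE 29 (GRCh38), matched by identifier without version for 58516 rows; lengths are the union of annotated exons.

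Genes were kept by filterByExpr, libraries scaled by TMM, and shSTN1 minus control fitted without covariates by edgeR 4.0.16 (R 4.3.3, robust quasi-likelihood test, Benjamini-Hochberg over 17451 genes, threshold 0.05). Differences in log2 CPM use a prior count of 2, with the SE of the difference between group means. For a gene with no reads in a group, the fold bound takes 3 reads in that whole group. Total counts per library set the precision. DESeq2 1.42.0 and limma-voom (limma 3.58.1) were alternatives. Within groups, library pairs had a chi-square over degrees of freedom of 3.02 to 8.89, so none is a repeat deposit.

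Members and gene lists were chosen with earlier results of these data known. Named were the 10 members, STN1, CDKN2A and IRS4, up to 4 genes per pathway list with the smallest adjusted p (at least 1 CPM in 1 group), every other family member with reads, overlapping genes with at least 10 reads, and the 2 genes nearest in level to each member. Others are said to be chosen after their values were seen. Figures used matplotlib 3.10.9 in Python 3.11.15.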

Additional observations from a re-analysis of the deposited data

How the results depend on the processing

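Across 15 alternatives (scaling factors, filters, gene sets, DESeq2, limma-voom, threshold, left-out libraries), 5281 to 6395 genes were called higher and 5700 to 7506 lower, and 24 to 26 pathway genes higher and 32 to 37 lower. Of 108 alternative values for the 9 members with reads in both groups, 108 moved by less than 1 SD of the replicates and 0 changed sign. For many of them this was set by arithmetic. Leaving out 1 of 3 libraries moves a group mean by less than 1 SD of that group, and the replicate block left each difference unaltered. Those values could hardly have passed the limit. Leaving out 1 library at a time moved the SLIT2 bound between 2936-fold and 4856-fold, SLIT over ROBO between -3.38 and -3.19, and netrin over UNC5 between 3.40 and 3.47. Without SLIT2 the SLIT over ROBO difference was 1.10, so its direction was reversed. Without NTN1 the netrin over UNC5 difference was 5.47, larger and in the same direction. The difference without NTN4, which is smaller, was not computed. With the longest transcript as gene length, 6 of 10 members kept their rank in control and 8 in shSTN1.

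A replicate block gave 6114 genes higher and 6628 lower, with 26 and 34 pathway genes. Same-numbered libraries deviated with correlations of -0.01, 0.02 and -0.03, which does not show pairing. Depth limits SLIT2, whose fold is a bound from 0 reads in shSTN1, and then ROBO2, SLIT1 and UNC5B, with 67, 72 and 100 reads summed over the shSTN1 libraries.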
